A study of Oryza sativa with 8 samples.

Results

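A set of 30 rows, of 59903 rows in a rice RNA-seq count table, held transcripts that were induced by drought and still raised after rewatering. Members were chosen by mean CPM (counts scaled to a library total of 1000000). A row was a member when its mean in drought was at least 4 times that under normal watering and under 1000, and its mean in recovery was at least 2 times the normal mean and at least 10. The 3 means come from 2 wild type libraries each, and the same libraries give the values below, so levels and fold changes describe the members and test nothing about them. Seedlings of the variety MH63 were sampled whole, with 30 plants to a bucket. Recovery plants had 14 days of growth, 15 days without watering and 4 days of rewatering. Drought plants had the same growth and dry period, which ended at about 5% of relative soil water content. Normal plants were watered throughout and harvested with the drought plants, so no normal sample of the later recovery day is analysed here. A further group of 2 libraries, drought-treated plants of the genotype osbzip23, took no part in the comparisons, for the reason given with the libraries.

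Plants that lose water accumulate abscisic acid. Its receptors then inhibit protein phosphatases, which frees kinases that activate bZIP transcription factors, among them OsbZIP23 in rice. The targets of these factors include protective proteins such as dehydrins, enzymes of osmolyte synthesis and components of the hormone pathway itself. On rewatering, abscisic acid is broken down and most of these transcripts decline, and the question asked of the recovery samples is which remain above the level of unstressed plants. The gene IDs of the table are row labels only. Because the osbzip23 and wild type columns do not correspond row by row, at least 1 set of columns stands beside IDs that are not its own, and which set is not known. An ID printed here names a row and is not evidence of the gene measured. The files pair no ID with a name, and 0 IDs were found among the 39387 rice genes of the reference table, so members carry no gene name or role here and the tissue could not be checked against markers. They are numbered 1 to 30 by mean CPM in drought, highest first. CPM was not divided by gene length, so this order labels rows and does not rank transcript abundance.

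The wild type libraries held from 37400784 to 42894245 counts, and the osbzip23 libraries 14653876 and 17009931. Across the first 40897 rows, log2(CPM + 1) correlated at r = 0.906 to 0.998 between pairs of wild type libraries and at 0.988 between the osbzip23 libraries, but at -0.013 to -0.0097 between osbzip23 and wild type. Genes are not independent replicates. The osbzip23 rows therefore do not correspond to those of wild type, and the values of osbzip23 on the member rows are not used. Whether the replicate number marks the batch of seedlings is not given in the labels, so spreads are those between these samples and may be technical.

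The label of the set was met by most but not all of its members. In 29 of 30 rows drought was above normal. Member 30 (OsMH_03G0199500) had 0 counts in both drought and both normal libraries and entered because 4 times 0 is 0. Its recovery libraries held 534 and 582 counts, or 14.0 and 14.9 CPM, at least 380-fold more than normal and at least 407-fold more than drought when 3 counts over both libraries are taken as the floor, which covers counting error only. This row was detected in recovery and not in the other 2 groups. Member 29 (OsMH_01G0555800) held 2231 and 0 counts in the recovery libraries, 183 and 169 in drought, and 0 and 0 under normal watering. Its recovery value rests on replicate 1. Member 9 stood at 49.1 and 17.4 CPM in recovery, 147 and 156 CPM in drought, and 22.4 and 0.455 CPM under normal watering. Its recovery and normal libraries overlap, and its normal pair differed by 49.2-fold, the highest ratio among the 13290 rows with counts in both normal libraries and a group mean of at least 10 CPM. The remaining 27 members had no pair of libraries that differed by more than 1.51-fold, and the counts of calls and of overlap below are given for the full set and for these 27.

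Recovery levels of the members lay between those of drought and normal plants in most rows. Summed over the 30 members, CPM came to 1164 ± 86.1 in recovery, 4491 ± 219 in drought and 361 ± 26.4 under normal watering (SD, n = 2 each). For the 27 members with even libraries, the sums were 1087 ± 22.8 in recovery, 4335 ± 212 in drought and 349 ± 10.9 under normal watering. Median levels over the 30 members were 29.2 CPM in recovery, 87.3 in drought and 8.51 under normal watering. Whole seedlings were measured, so fewer cells of a type and less RNA per cell cannot be told apart. Recovery means ran from 10.1 to 97.8 CPM, drought means from 0 to 981 and normal means from 0 to 38.8.

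**Figure D1:**
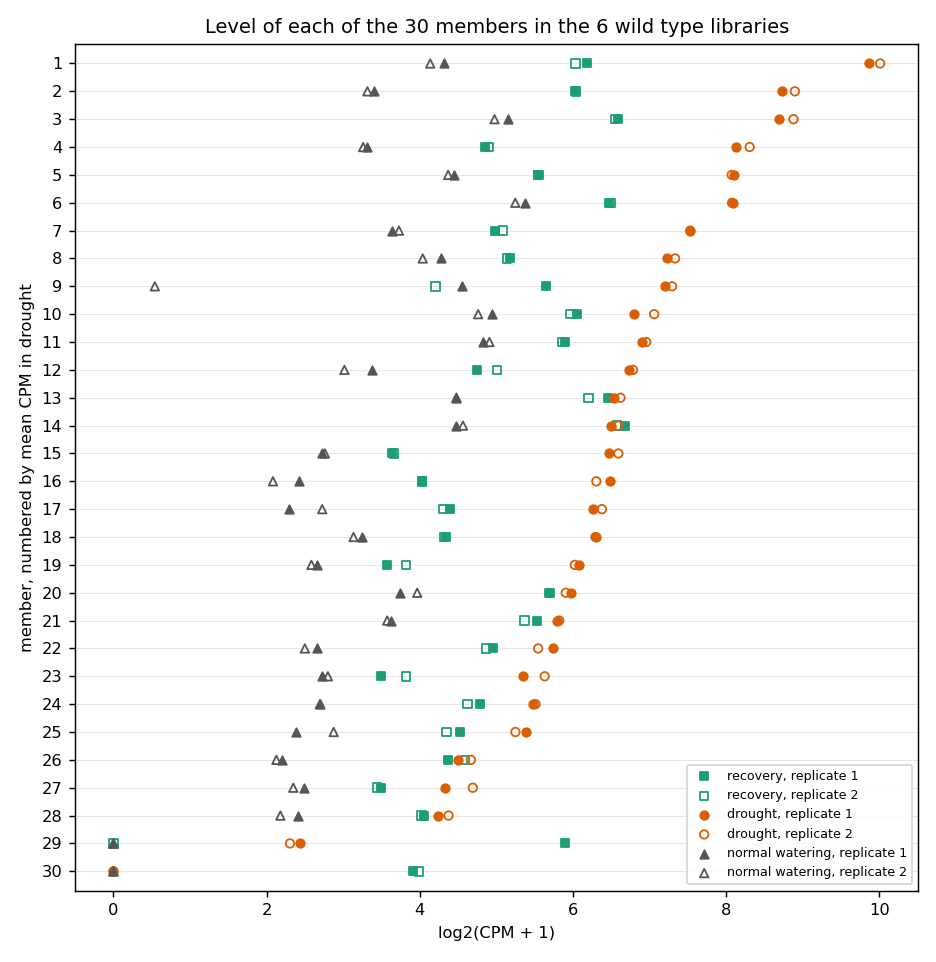
Level of each member as log2(CPM + 1), with filled symbols for replicate 1 and open symbols for replicate 2 of recovery, drought and normal wild type. In most members recovery lies between drought and normal, while members 9, 29 and 30 have uneven or empty libraries.

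Among the members with counts under normal watering, members 1, 2 and 4 had the highest ratios of drought over normal. They kept 5.22%, 12.6% and 6.82% of the rise. Member 1 (OsMH_09G0059600) stood at 71.8 and 64.3 CPM in recovery, 933 and 1029.8 CPM in drought, and 18.9 and 16.6 CPM under normal watering. None of its groups overlap, and its fitted log2 fold change was 5.86 ± 0.09 for drought over normal and 2.13 ± 0.08 for recovery over normal (SE). Member 2 (OsMH_04G0493800) stood at 64.4 and 64.8 CPM in recovery, 421 and 476 CPM in drought, and 9.61 and 8.96 CPM under normal watering. With fitted log2 fold changes of 5.67 ± 0.08 in drought and 2.99 ± 0.08 in recovery, both over normal, it had the highest recovery over normal value of the 27 even members. Member 4 (OsMH_07G0402900) stood at 27.9 and 28.9 CPM in recovery, 279 and 316 CPM in drought, and 8.94 and 8.58 CPM under normal watering. Its fitted log2 fold change for recovery over normal was 1.89 ± 0.08, so a drought mean 33.9 times the normal mean was followed by a recovery mean 3.24 times it.

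The part of the drought rise that remained was expressed as a share, the recovery mean minus the normal mean divided by the drought mean minus the normal mean. Its median was 20.5% over the 29 members with drought above normal, and 20.5% over the 27 even members. Taken with a single recovery library, the median over the 29 was 21.1% for replicate 1 and 19.0% for replicate 2. Among the 27, 15 members kept under 25% of the rise, 4 kept 25 to 50%, 7 kept 50 to 100%, and 1 stood in recovery above its drought level. Drought levels differed between these classes, with a median of 155 CPM in the 15 members that kept least and 49.0 CPM in the 7 that kept 50 to 100%. The share is computed from the drought mean, so this order of medians is partly set by its construction.

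**Figure D2:**
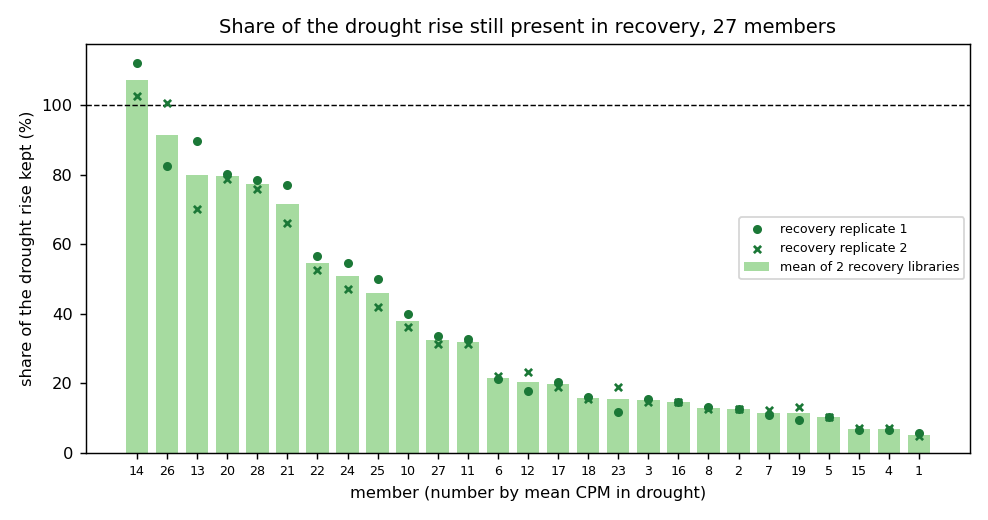
Share of the drought rise still present in recovery for the 27 members with even libraries (bars, mean of 2 recovery libraries, in %; points, each recovery library against the drought and normal means). The shares run from 5.22% in member 1 to 107% in member 14, and the dashed line marks the full drought level.

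The upper end of this range held 8 members. Member 14 had 101 and 94.4 CPM in recovery, 89.6 and 95.5 CPM in drought, and 21.3 and 22.6 CPM under normal watering. Its recovery and drought libraries overlap, and both groups lie above normal. Member 26 had 19.6 and 23.1 CPM in recovery, 21.6 and 24.4 CPM in drought, and 3.60 and 3.37 CPM under normal watering, and kept 91.5% of its rise. Member 13 had 86.9 and 72.6 CPM in recovery, 91.5 and 97.4 CPM in drought, and 21.2 and 21.3 CPM under normal watering, and kept 80.0%. In member 26 the recovery and drought libraries overlap, and in member 13 they do not. Member 20 had 51.1 and 50.4 CPM in recovery, 61.8 and 58.9 CPM in drought, and 12.4 and 14.6 CPM under normal watering, a share of 79.5%. Member 28 kept 77.2%, with 15.6 and 15.3 CPM in recovery, 17.9 and 19.7 CPM in drought, and 4.30 and 3.53 CPM under normal watering. Both had recovery close under drought, without overlap. Member 21 kept 71.6%, with 45.0 and 40.2 CPM in recovery, 54.6 and 55.5 CPM in drought, and 11.3 and 10.9 CPM under normal watering. In member 21 too, recovery lay under drought and well over normal. Members 22 and 24 kept 54.7% and 50.7%. Member 22 stood at 30.0 and 28.2 CPM in recovery, 52.4 and 45.7 CPM in drought, and 5.34 and 4.65 CPM under normal watering. Member 24 stood at 26.5 and 23.6 CPM in recovery, 43.4 and 44.6 CPM in drought, and 5.48 and 5.48 CPM under normal watering. In these 8 rows every recovery library lay above both normal libraries, as in 21.6% of all tested rows, and the rule favours this.

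The 4 members that kept 25 to 50% were of modest induction, with drought means 4.29 to 7.39 times the normal means. Member 10 had 65.1 and 61.6 CPM in recovery, 110.1 and 132 CPM in drought, and 29.8 and 26.1 CPM under normal watering. Member 27 had 10.2 and 9.86 CPM in recovery, 19.0 and 24.9 CPM in drought, and 4.59 and 4.09 CPM under normal watering. Members 10 and 27 occupied consecutive rows of the table, 19172 and 19173, and their recovery means were 2.27 and 2.32 times normal. No other members were on neighbouring rows, and whether the order of wild type rows follows the genome is not known. Member 11 had 58.6 and 57.3 CPM in recovery, 119 and 123 CPM in drought, and 27.4 and 29.0 CPM under normal watering. Member 25 had 22.1 and 19.3 CPM in recovery, 40.9 and 37.0 CPM in drought, and 4.20 and 6.34 CPM under normal watering. In all 4 rows the 3 groups did not overlap. The fold conditions favour this for both contrasts with normal, and the share of all rows with 3 groups apart was not counted. Nothing is read from it.

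The 15 even members that kept under 25% include members 1, 2 and 4. Member 3 had 95.3 and 92.6 CPM in recovery, 412 and 469 CPM in drought, and 34.5 and 30.5 CPM under normal watering, and kept 15.1%. Member 6 had 87.5 and 89.4 CPM in recovery, 270.3 and 269 CPM in drought, and 40.6 and 37.0 CPM under normal watering, and kept 21.5%. Member 5 had 45.8 and 45.8 CPM in recovery, 274 and 268 CPM in drought, and 20.8 and 19.7 CPM under normal watering, and kept 10.2%. In these rows recovery was more than 2 times normal while most of the drought level was gone. Member 7 had 30.5 and 33.0 CPM in recovery, 184 and 184 CPM in drought, and 11.4 and 12.2 CPM under normal watering. Member 12 had 25.9 and 31.1 CPM in recovery, 105 and 109 CPM in drought, and 9.42 and 7.09 CPM under normal watering. Member 16 had 15.3 and 15.3 CPM in recovery, 88.2 and 78.0 CPM in drought, and 4.37 and 3.24 CPM under normal watering. Members 7, 12 and 16 kept 11.6%, 20.5% and 14.5% of the rise. Member 17 had 19.9 and 18.7 CPM in recovery, 75.6 and 82.1 CPM in drought, and 3.89 and 5.61 CPM under normal watering. In member 17 the normal libraries differed more from each other than the recovery libraries did, and it kept 19.7%. Member 8 had 35.2 and 34.2 CPM in recovery, 149 and 160.2 CPM in drought, and 18.4 and 15.4 CPM under normal watering. Member 15 had 11.4 and 11.7 CPM in recovery, 87.5 and 95.5 CPM in drought, and 5.60 and 5.78 CPM under normal watering. Both stood in recovery little more than 2 times above normal, at 2.05 and 2.03 times. Member 18 had 19.2 and 18.9 CPM in recovery, 77.5 and 77.4 CPM in drought, and 8.50 and 7.78 CPM under normal watering. Member 19 had 10.9 and 13.1 CPM in recovery, 66.8 and 64.1 CPM in drought, and 5.29 and 5.00 CPM under normal watering. In member 23 the values were 10.3 and 13.1 CPM in recovery, 39.8 and 48.5 CPM in drought, and 5.63 and 5.96 CPM under normal watering. These 5 members kept 6.82% to 15.7% of the rise. Their groups did not overlap, from which again nothing is read, since the rule favours it. Over the 15 rows, recovery means were 2.02 to 6.96 times the normal means, with a median of 2.68.

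By normal level, 15 members lay between 1 and 10 CPM under normal watering, 13 between 10 and 100, and 2 under 1. No member reached 100 CPM in normal plants. In the 15 members of the lower class the median recovery mean was 3.93 times normal, and in the 12 even members of the middle class it was 2.79 times. The minimum of 10 CPM in recovery enters here, since a row at 3.48 CPM in normal plants, the lowest among the even members, needs more than a 2-fold excess to reach it.

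Drought against normal watering asked which transcripts rose with water loss. In an edgeR fit of the 6 wild type libraries, with adjustment over all tested rows, 28 of 30 members were called higher in drought, where 35.3% of 22898 tested rows were called higher. Both drought libraries lay above both normal libraries in 29 members and in 39.8% of tested rows. All 27 even members were called higher, with no overlap. The rule fixed this contrast, so nothing is read from these counts. All 30 members passed the filter on low counts. Their fitted log2 fold changes had a median of 3.30, and 3.27 over the 27 even members with a range of 2.15 to 5.86, against a median of -0.0035 over all tested rows. Members 29 and 30, with 0 counts in the normal libraries, were not called.

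Recovery against normal watering asked what stayed different after rewatering. Of 30 members, 29 were called higher in recovery, where 18.1% of the tested rows were called higher, and here too the rule fixed the direction. Both recovery libraries lay above both normal libraries in 28 of 30 members and in 21.6% of all tested rows. Member 9 was not called. All 27 even members were called higher, with no overlap. Among the 27 even members the fitted log2 fold change had a median of 1.97 and ran from 1.20 to 2.99, and over all tested rows the median was 0. The scaling of the libraries matters in this contrast. TMM scaling in edgeR shifted recovery over normal up by 0.19 log2 units against plain library totals, and 52.1% of all calls were in the higher direction with TMM, against 26.5% with library size. All 27 even members were above normal under each of the scalings, but with TMM library sizes in place of totals the rule itself chose 46 rows, including all 30 members.

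Recovery against drought asked how far each transcript declined on rewatering. Of 30 members, 23 fell, 3 rose and 4 were not called. Over all tested rows 37.3% were called lower and 38.2% higher in recovery. Both recovery libraries lay below both drought libraries in 26 members and in 47.7% of tested rows. Of the 27 even members, 22 fell, 1 rose and 4 were not called, and 25 had recovery below drought without overlap. These shares are of all rows, most of them not called higher in drought, and the limits that the rule set on both levels shape the counts for the members. The steepest falls were those of member 1, with a log2 fold change of -3.74 ± 0.08, and member 4, with -3.27 ± 0.07 (SE, edgeR). Of the rises, member 14 had 0.19 ± 0.06, and members 29 and 30 are the rows with uneven or empty libraries. Member 29 had 2.93 ± 1.22, which became -10.40 without recovery replicate 1, the only recovery library with counts. With library size scaling 1 member was called higher, member 30, and the count was also 1 without drought replicate 1 and 1 without recovery replicate 1.

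**Figure D3:**
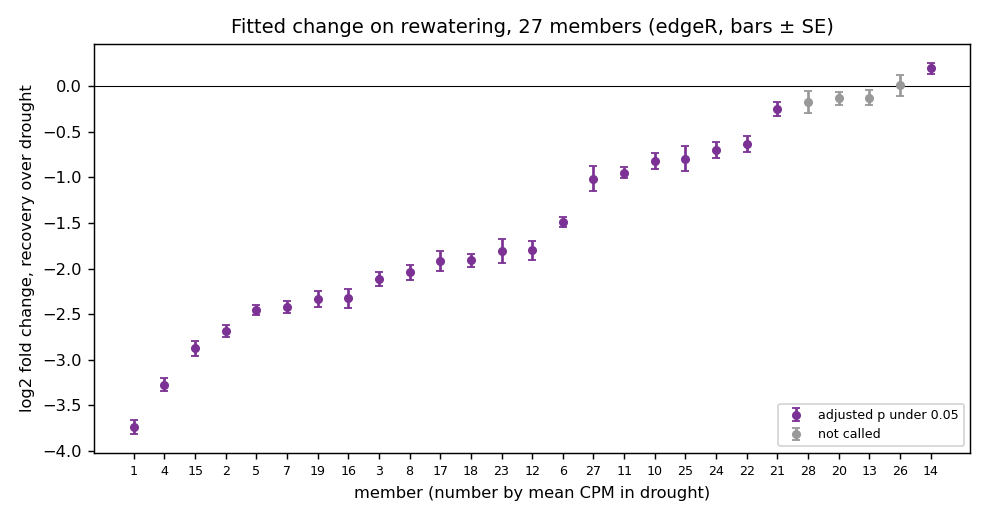
Fitted log2 fold change of recovery over drought for the 27 members with even libraries, with SE bars derived from the edgeR fit of 6 libraries, purple where the adjusted p was under 0.05. Members 13, 20, 26 and 28 were not called, and member 14 stood above 0.

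The 4 members not called had recovery means between 0.820 and 0.928 times the drought means. Their log2 fold changes for recovery over drought were -0.13 ± 0.08 in member 13, -0.14 ± 0.08 in member 20, 0.0052 ± 0.11 in member 26 and -0.17 ± 0.12 in member 28 (SE). These values do not show that the levels were equal. With library size scaling, members 13, 20 and 28 were called lower, at -0.24, -0.25 and -0.29, and member 26 stood at -0.11. The sign of member 26 thus differed between scalings, and member 14 was not called with library size, at 0.08.

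Choice and reading were also split between the replicates, as a description. The members were chosen in all 6 wild type libraries, so neither replicate lies outside the rule. Of the rows chosen in replicate 1, 27 are members, and of those chosen in replicate 2, 26 are. When the rule was applied to the 3 libraries of replicate 1 alone, it chose 36 rows, of which 32 had counts in both normal libraries. Of these 32, 25 (78.1%) met both fold conditions in the libraries of replicate 2, and in 31 both recovery and drought were above normal there. Being above normal is a weaker condition, and its share over all rows was not counted, so nothing is read from the 31. Over all 36 rows the count was 29 (80.6%), but 4 of these had 0 counts in a normal library, where a fold condition can be met without a rise. The whole rule, with its limits on levels, was met in replicate 2 by 23 of the 36. When it was applied to replicate 2, it chose 28 rows, 27 of them with counts in both normal libraries. Of these 27, 22 (81.5%) met both conditions in replicate 1, and over all 28 rows it was 23 (82.1%), with member 30 counted although its drought and normal libraries were at 0. All 23 met the whole rule there. For comparison, among all rows with normal counts, at least 10 CPM in recovery and under 1000 in drought in the choosing libraries, 0.266% met both conditions in replicate 2 and 0.248% in replicate 1. These rows include the chosen rows, which make up most of those that met the conditions, so the shares are not independent. Among the chosen rows with counts in both normal libraries, the median recovery over normal ratio was 3.19 in replicate 2 and 2.96 in replicate 1 for the 32 rows chosen in replicate 1. For the 27 rows chosen in replicate 2 it was 2.76 in replicate 1 and 3.34 in replicate 2. Most of the chosen rows thus met the fold conditions in both replicates, with 1 library per group and so with no test. The replicates may be technical, so this describes how far these libraries agree and is no support for the set.

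**Figure D4:**
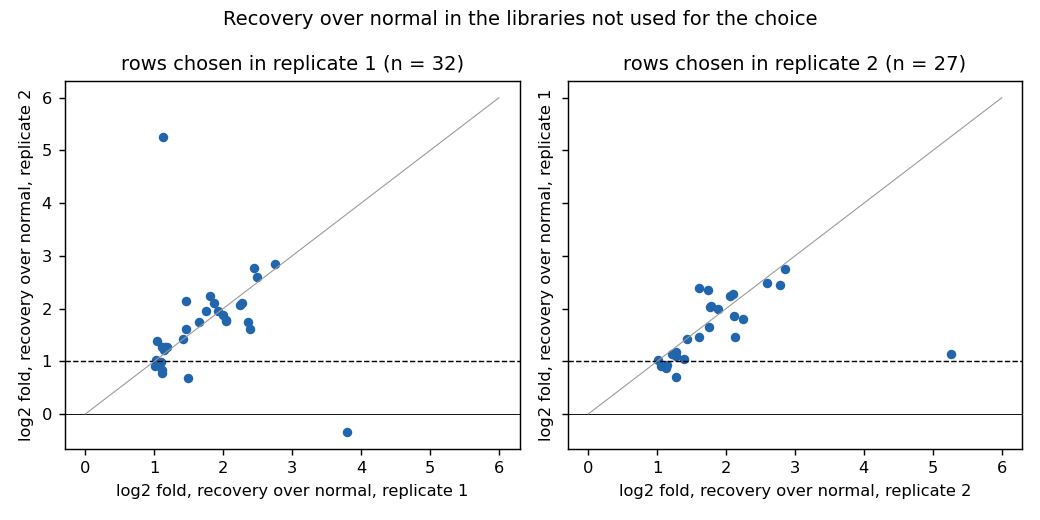
Log2 ratio of recovery over normal in the libraries that chose the rows (x axis) and in the other replicate (y axis), for 32 rows chosen in replicate 1 (left) and 27 chosen in replicate 2 (right). The dashed line marks the 2-fold condition of the rule and the diagonal equal values.

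Rows that met every condition except the recovery fold place the members among induced rows. In all, 250 rows had a drought mean of at least 4 times normal and under 1000 CPM with at least 10 CPM in recovery. The members were 30 of these (12%), 100 (40%) stood in recovery at 1 to 2 times normal, and 120 (48%) stood below normal. These shares, and the ratios below, rest on library totals. TMM and median-of-ratios sizes shifted recovery over normal up by 0.19 and 0.21 log2 units, and the rule then chose 46 and 47 rows. The split of the induced rows was not recounted with them, so the share below normal depends on the scaling. The median recovery over normal ratio was 3.35 over the 28 members with normal counts and 0.924 over the other 220 rows. The rule divides these groups at 2 times normal, so the order of the 2 medians was fixed in advance. Drought levels were lower in the members, with a median of 87.3 CPM against 173 CPM in the other rows, and so were normal levels, at 8.51 CPM against 23.5 CPM. The drought over normal ratio had a median of 9.33 in the members and 6.11 in the other rows. A ratio over normal chooses for low normal values. The other rows also had to reach 10 CPM in recovery at under 2 times normal, which excludes low normal and drought means. Their lowest means were 5.32 CPM under normal watering and 25.4 CPM in drought, against 0 for both in the members. The differences thus follow in part from the choice and carry no test.

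**Figure D5:**
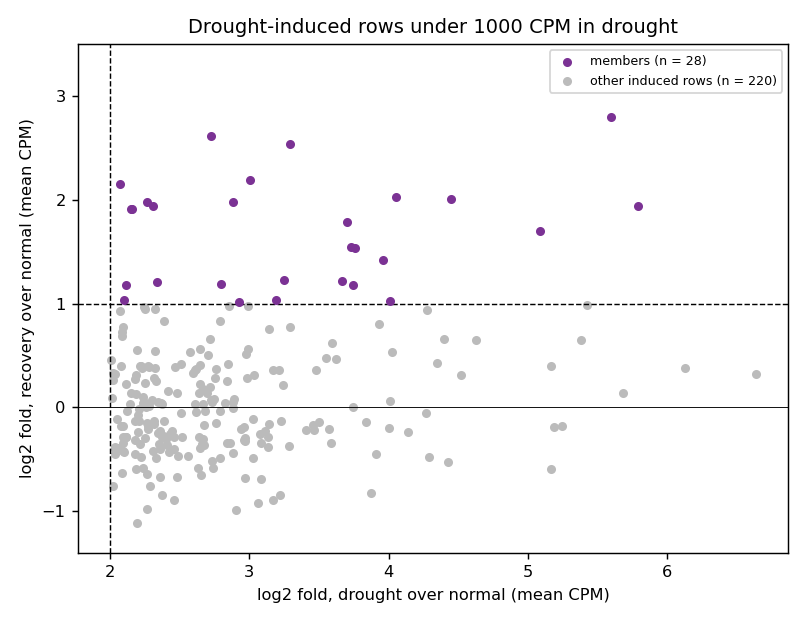
Log2 ratio of drought over normal (x axis) and of recovery over normal (y axis), from mean CPM, for 28 members with normal counts and 220 other induced rows. The dashed lines mark the 4-fold and 2-fold conditions of the rule, and most other rows lie around the normal level in recovery.

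The fold thresholds and the recovery floor fell within continuous ranges, while the drought cap fell in a gap. Just inside the recovery fold lay members at 2.02 and 2.03 times normal, and just outside it lay rows at 1.98 and 1.97 times. At the drought fold, the nearest members were at 4.21 and 4.29 times normal and the nearest rows outside at 3.95 and 3.87 times. Recovery means of 10.1 and 11.5 CPM were the lowest inside, and 9.89 and 9.51 CPM the highest outside. The row at 9.51 CPM stood at 0 CPM in drought and under normal watering, so it was not induced by drought. The drought cap left out a single row, at 1669 CPM in drought, 64.1 CPM in recovery and 1.03 CPM under normal watering, while the highest members lay at 981 and 449 CPM. The floor of 10 CPM in recovery left out more rows. Of 787 rows with at least 4-fold induction and a drought mean of 10 to 1000 CPM, 126 had a recovery mean of at least 2 times normal, and 98 of these lay under 10 CPM in recovery. Apart from members 29 and 30, whose drought means were under 10 CPM, the members are thus the part with higher recovery counts of a larger group.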

How the data were processed

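Per the labels' protocols, total RNA was column-purified and made into Illumina TruSeq libraries. The authors deposited whole-number counts per gene ID, 1 column per sample, not normalized, per the file headers. Of tools, StringTie 2.1.7, STAR 2.7.10a and fastp 0.23.0 appear in the submitters' processing notes, with no role or order. For the build, annotation, strand setting and shared reads the answer is not given in the sources used here, so paralogous or overlapping genes are uncertain.

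CPM is the count scaled to a library total of 1000000. The members and the settings were chosen with earlier results of these data known. The 6 wild type libraries were fitted in edgeR 4.0.16 (R 4.3.3) with TMM, filterByExpr by group and a quasi-likelihood F-test (two-sided), with 3 residual degrees of freedom, Benjamini-Hochberg adjustment over 22898 rows and a threshold of 0.05. The SE of a fitted change was derived as the absolute log2 fold change divided by the square root of the F statistic. The osbzip23 libraries stayed out because their rows do not correspond. Rows printed by ID were, per comparison, at most 2 that rose and 2 that fell, those with the largest fitted change among called members. In the contrasts against normal watering, only members whose libraries did not overlap were taken. Other members were described by number. No gene list or sequence was used, since no ID matched a named gene. Members were called uneven where libraries of a group differed by more than 4-fold or the normal group was at 0, a criterion set after seeing the data. Alternatives were other scalings, filters and thresholds, DESeq2 1.42.0, limma-voom (limma 3.58.1), fits of 8 or 4 samples, a replicate block, and single libraries left out in turn. Simulated counts with known rises in 200 well-expressed rows, and the same spread for every row, were used to test the fits. They do not cover data with as many changed rows as here, or uneven rows. Python 3.11.15, NumPy 2.4.6, pandas 2.3.3 and matplotlib 3.10.9 were used.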

Additional observations from a re-analysis of the deposited data

Results flagged for a closer look

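The osbzip23 libraries, which no comparison used, held 8.41% ± 0.45 of their counts (SD, n = 2) on the rows after row 40897, where the counts of wild type drought replicate 1 end, whereas the 6 wild type libraries held 0% to 0.077% there. This is a signal outside the libraries compared. All 30 members lie before that row.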

How the results depend on the processing

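Counts of members kept their size within 1.5 times under most settings. The set held 46 rows with TMM and 47 with median-of-ratios library sizes, both including all 30 members, 17 with recovery at least 3 times normal and 18 with drought at least 8 times normal. Leaving out single libraries gave 30 to 34 members, at least 27 of them shared. The median share of the rise kept was 20.5%, 23.1% with TMM and 23.8% with median-of-ratios sizes, and 19.0% to 21.7% with single libraries left out. Members called higher in recovery than in drought numbered 3, but 1 with library size only and 1 in the fit of all 8 samples. Leaving out single libraries gave 1 to 3. Without the 3 uneven members, chosen after seeing the data, 1 was called higher and 1 stood at or above drought, against 3. The log2 fold change of OsMH_01G0555800 for recovery over drought, 2.93, was -2.27 with limma-voom and ran from -10.40 to 3.94 with single libraries left out, the lowest without recovery replicate 1. It lost its call under 9 other settings. Over all rows, a minimum absolute log2 fold change of 1 left 9272 calls in drought over normal, 1594 in recovery over normal and 10477 in recovery over drought, against 16641, 7968 and 17277. The fit of all 8 samples called 3231 in recovery over normal. The cause was not tested where the setting itself does not give it.

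Deviations of same-numbered libraries correlated at -0.057 to 0.071 across 13348 rows, so the numbers are not taken to pair the samples. With the replicate block, 29 members were called higher in drought over normal, 30 in recovery over normal, and 23 lower and 2 higher in recovery over drought. The block fit called 16283, 7424 and 16922 of all rows in the 3 contrasts. With 2 libraries per group, precision is limited by the spread between libraries.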

Other observations

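The rows beside the members in the table were examined as a description. Of 58 rows next to a member, 41 had a group mean of at least 1 CPM, and 7 of these (17.1%) had a drought mean of at least 4 times normal, against 6.62% of all rows with such a mean. No test was made, and whether neighbouring wild type rows are neighbouring genes is not known.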
